A study of Rattus norvegicus with 12 samples.

Results

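Histone and nucleosome assembly transcripts were followed in primary astrocytes from the midbrain of newborn SD rats during the first hours with PT109B, a small molecule known here by its code name. The members were the genes whose GO process annotation in the deposited table names nucleosome assembly, or whose symbol starts with Hist and a digit. Genes also annotated to DNA replication or DNA repair were left out, which removed 19 genes, among them H3f3a and Hist2h3c2 for histone H3 and H4-I for histone H4, and 1 further gene with a Cenp symbol was left out. This gave 36 of the 9721 genes in the table, 31 by the GO term alone, 3 by the symbol alone and 2 by both. The 36 were 7 linker histones, 1 linker histone relative, 2 core H2A genes, 1 H2A variant, 5 core H2B genes, 9 histone chaperones, 4 genes of centromeric chromatin, 6 chromatin remodelers, modifiers or readers, and the transcription factor Sox9. No core H3 or H4 gene was a member.

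The cells carried the wild-type genotype, were grown with fetal bovine serum and received 10 µM PT109B for 0 h (the control group), 1.5, 3 or 6 h, with 3 libraries in each of the 4 groups. The series title places the work in the conversion of astrocytes to dopaminergic neurons, and the comparisons here ask how members differed from control at each time and between neighbouring times. The control group served all 3 comparisons with control, and no vehicle group was used here. Nothing in the labels says whether replicate libraries are independent cultures, so a p-value reflects the spread among these particular libraries, and that spread may be technical.

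Chromatin is built from nucleosomes, in which DNA is wrapped around core histones H2A, H2B, H3 and H4, and a linker histone of the H1 family binds where the DNA enters and leaves. Chaperones carry histones from the cytoplasm to DNA, and a separate set loads the H3 variant CENP-A at centromeres after mitosis. Most core histone genes and the clustered H1 genes are transcribed mainly in S phase and yield messages that end in a stem-loop instead of a poly(A) tail, whereas H1f0 lies outside the clusters and is known to accumulate in cells that leave the cycle. Whether poly(A) selection was used is not given in the sources used here, so levels of the clustered genes may cover only part of their RNA.

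Promoter sequence is shown for 5 of the 7 linker histones, the group with the largest changes among called members. The choice within the group did not follow the calls. H1f5, called in no comparison, is shown, and H1f1, called higher at 3 h, is not. The 250 bases before the annotated start were read from RefSeq (build GRCr8), where 35 of the 36 members matched by symbol or synonym and 30 had 1 promoter. Each is written 5′ to 3′ on the gene's own strand, with matches to the searched motifs in capitals. The motifs were AAACACA (the H1 box, known from H1 gene promoters), CCAAT and TATAAA, searched on both strands.
H1f2: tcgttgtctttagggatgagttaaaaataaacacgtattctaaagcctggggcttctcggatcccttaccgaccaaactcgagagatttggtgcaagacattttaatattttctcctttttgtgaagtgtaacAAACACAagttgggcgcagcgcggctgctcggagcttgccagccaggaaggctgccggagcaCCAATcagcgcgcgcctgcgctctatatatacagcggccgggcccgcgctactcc
H4f3: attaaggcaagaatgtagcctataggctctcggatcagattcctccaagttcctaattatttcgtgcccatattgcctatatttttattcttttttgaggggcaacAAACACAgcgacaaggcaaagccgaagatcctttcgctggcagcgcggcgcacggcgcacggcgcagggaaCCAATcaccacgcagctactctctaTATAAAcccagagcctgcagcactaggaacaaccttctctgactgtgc
H1f4: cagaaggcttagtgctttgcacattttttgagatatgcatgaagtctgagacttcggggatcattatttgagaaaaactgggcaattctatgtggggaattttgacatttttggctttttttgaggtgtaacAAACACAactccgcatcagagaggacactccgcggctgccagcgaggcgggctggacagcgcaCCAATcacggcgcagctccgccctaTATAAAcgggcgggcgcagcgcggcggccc
H1f5: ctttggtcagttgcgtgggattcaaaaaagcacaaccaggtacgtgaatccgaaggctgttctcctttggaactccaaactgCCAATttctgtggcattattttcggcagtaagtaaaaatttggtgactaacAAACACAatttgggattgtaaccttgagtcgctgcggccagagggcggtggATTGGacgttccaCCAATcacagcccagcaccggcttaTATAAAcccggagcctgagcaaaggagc
H1f0: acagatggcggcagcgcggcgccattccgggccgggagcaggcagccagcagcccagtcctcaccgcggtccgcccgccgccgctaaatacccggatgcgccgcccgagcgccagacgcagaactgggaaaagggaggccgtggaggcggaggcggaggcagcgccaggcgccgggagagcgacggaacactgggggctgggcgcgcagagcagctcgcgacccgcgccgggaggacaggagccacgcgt
H1f2 lies at chr17:41820454-41820703 and H4f3 at chr17:41980342-41980591, both on the minus strand. H1f4 lies at chr17:41914175-41914424, H1f5 at chr17:47421625-47421874 and H1f0 at chr7:112473030-112473279, all on the plus strand. The H1 box was found in these promoters of H1f2, H4f3, H1f4 and H1f5, its first base 117, 144, 118 and 117 bases before the start in that order, and not in that of H1f0. Nor was it found in those of H1f1 and H1f10, which are not shown. It was present in 4 of 7 linker histone promoters, in 0 of 13 other members with 1 promoter that are neither histones nor centromere genes, and in 6.08% of all 33469 promoters of this length. CCAAT was present in 5 of 7 linker histone promoters against 34% of all promoters, and TATAAA in 4 of 7 against 12.9%. Over linker and core histones together, the H1 box was in 4 of 13 promoters, CCAAT in 11 and TATAAA in 7. The H1 box was thus in no core histone promoter, whereas CCAAT and TATAAA were not particular to linker histones. The positions of TATAAA differed, however. Its first base was at -28 to -48 from the start in linker histones, and at -38 in Hist3h2ba, -141 in Hist1h2an and -236 in Hist1h2bo. Of the 13 other members, 3 had CCAAT and 2 had TATAAA. These are matches of letters, and no binding was measured.

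Total counts were 9368967 to 12498047 per library. In every treated group 2 libraries were alike and 1 stood apart, nearer to the controls, namely replicate 3 at 1.5 h (Pearson's r with controls across 9491 genes of 0.9736 to 0.98, against 0.8993 to 0.9252 for the alike libraries), replicate 3 at 3 h (0.9612 to 0.9654 against 0.9197 to 0.9251) and replicate 1 at 6 h (0.9517 to 0.9534 against 0.9128 to 0.9149). Astrocyte markers were plentiful, with 7 of 8 in the table and a summed level of 4190 to 6356 CPM (counts scaled to library sizes normalised by TMM) in controls, 5512 to 6473 at 1.5 h, 4393 to 5614 at 3 h and 3306 to 4058 at 6 h. Of 11 microglia markers, 11 were in the table and none was at 0, and their summed level was 1603 to 1971 CPM in controls, 155, 156 and 2077 at 1.5 h, 1080, 1077 and 1821 at 3 h, and 1620, 982 and 914 at 6 h. Markers of fibroblasts and meninges (6 of 6) summed to 1244 to 1587 CPM in controls, 5441, 5651 and 1316 at 1.5 h, 1254 to 1874 at 3 h and 1031 to 1346 at 6 h. Neuron markers (4 of 6 in the table) summed to 90.3 to 132 CPM in controls, 326, 316 and 99.97 at 1.5 h, 274, 257 and 126 at 3 h, and 150, 254 and 260 at 6 h. Markers of the oligodendrocyte lineage (8 of 8) summed to 630 to 652 CPM in controls, 566 to 731 at 1.5 h, 1048, 1082 and 530 at 3 h, and 545, 901 and 887 at 6 h, with Mag at 0 in at least 1 library. Endothelial markers (4 of 5) stayed at 31.7 to 67.3 CPM in all 12 libraries. The mean level of 25 mitosis genes, as log2(CPM + 1), was 6.12 to 6.59 in controls, 6.05 to 6.33 at 1.5 h, 3.03, 2.93 and 5.79 at 3 h, and 5.79, 2.65 and 2.78 at 6 h. The part of these differences in the results was not tested, and in bulk samples fewer cells of a type and less RNA per cell cannot be told apart.

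At 1.5 h 3 linker and 2 core histone genes rose, led by H1f2, which was 4.64-fold higher than in control then and 7.70-fold higher at 3 h. Histone chaperones were called in both directions at 3 and 6 h, and the centromere genes split by library without a call. Calls were made with edgeR's quasi-likelihood test at a Benjamini-Hochberg adjusted p below 0.05 over 9491 genes, and all 36 members were tested. At 1.5 h 5 members rose and 0 fell (3 with the replicate number as a block), or 13.9% of members, where 3.32% of all tested genes were called (1.95% higher, 1.37% lower). At 3 h 9 were higher and 2 fell, or 30.6% against 21.4% of all genes (13.5% higher, 7.94% lower). At 6 h 7 rose and 1 fell, or 22.2% against 30.5% (18.7% higher, 11.8% lower). With the 3 libraries standing apart left out, the called shares were 65.7%, 82.9% and 65.7% of 35 tested members at 1.5, 3 and 6 h, against 59.2%, 70.9% and 75.1% of all genes. The median log2 change against control was 0.40, 0.00 and 0.06 over members at 1.5, 3 and 6 h, and -0.01, -0.03 and -0.02 over all tested genes. H1f2, H4f3 and Hist1h2bq rose at all 3 times, 12 members were called at 1 time or more and 24 at none. All genes were not counted in this way, and 30.5% of them were called at 6 h alone, so no excess among members is read from these counts. Of the members, 17 lay wholly above and 1 wholly below the control libraries at 1.5 h, where 12.9% and 15.1% of all genes did; at 3 h these were 14 and 9 members (23.4% and 24.3%), and at 6 h 11 and 10 (28.2% and 27.5%). These counts include Hist1h2an, Hist1h2bo, H2BC3 and H1f1, which had a count under 10 in every control and passed the filter on low counts only through treated libraries, so a higher value was needed for them to be tested at all. Over the other 32 members, 13 lay above and 1 below control at 1.5 h, 12 and 9 at 3 h, and 8 and 10 at 6 h, and 5, 8 and 7 were called higher. The median log2 change over these 32 was 0.32, -0.18 and -0.07 at 1.5, 3 and 6 h, so the medians over all 36 depend on the filter. Among these 32, H1f4, H1f5 and Hist3h2ba had 0.176 to 1.20 CPM in controls and also needed treated libraries to pass the filter. H1f5 and Hist3h2ba are in the 13 above control at 1.5 h, and H1f4 is in the 7 called higher at 6 h. The counts and medians over the 32 thus still hold members that needed a higher value to be tested.

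The counts of calls depended on single libraries and on scaling. Without 1.5 h replicate 3 there were 11 calls at 1.5 h, and 3 (H1f2, H4f3 and H1f0) without any 1 of the other 5 libraries. Without 3 h replicate 3 there were 18 at 3 h, and 7 without control replicate 1, control replicate 2 or 3 h replicate 2. Without 6 h replicate 1 there were 14 at 6 h, and 5 without 6 h replicate 2 or 3. Scaling by library size, which shifted the changes of all genes by a median of -0.31 at 3 h and -0.22 at 6 h (log2), gave 8 higher and 9 lower members at 3 h and 6 higher and 7 lower at 6 h. The share of all genes called was not computed for these fits, so a moved count may be shared by all genes.

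**Figure D1:**
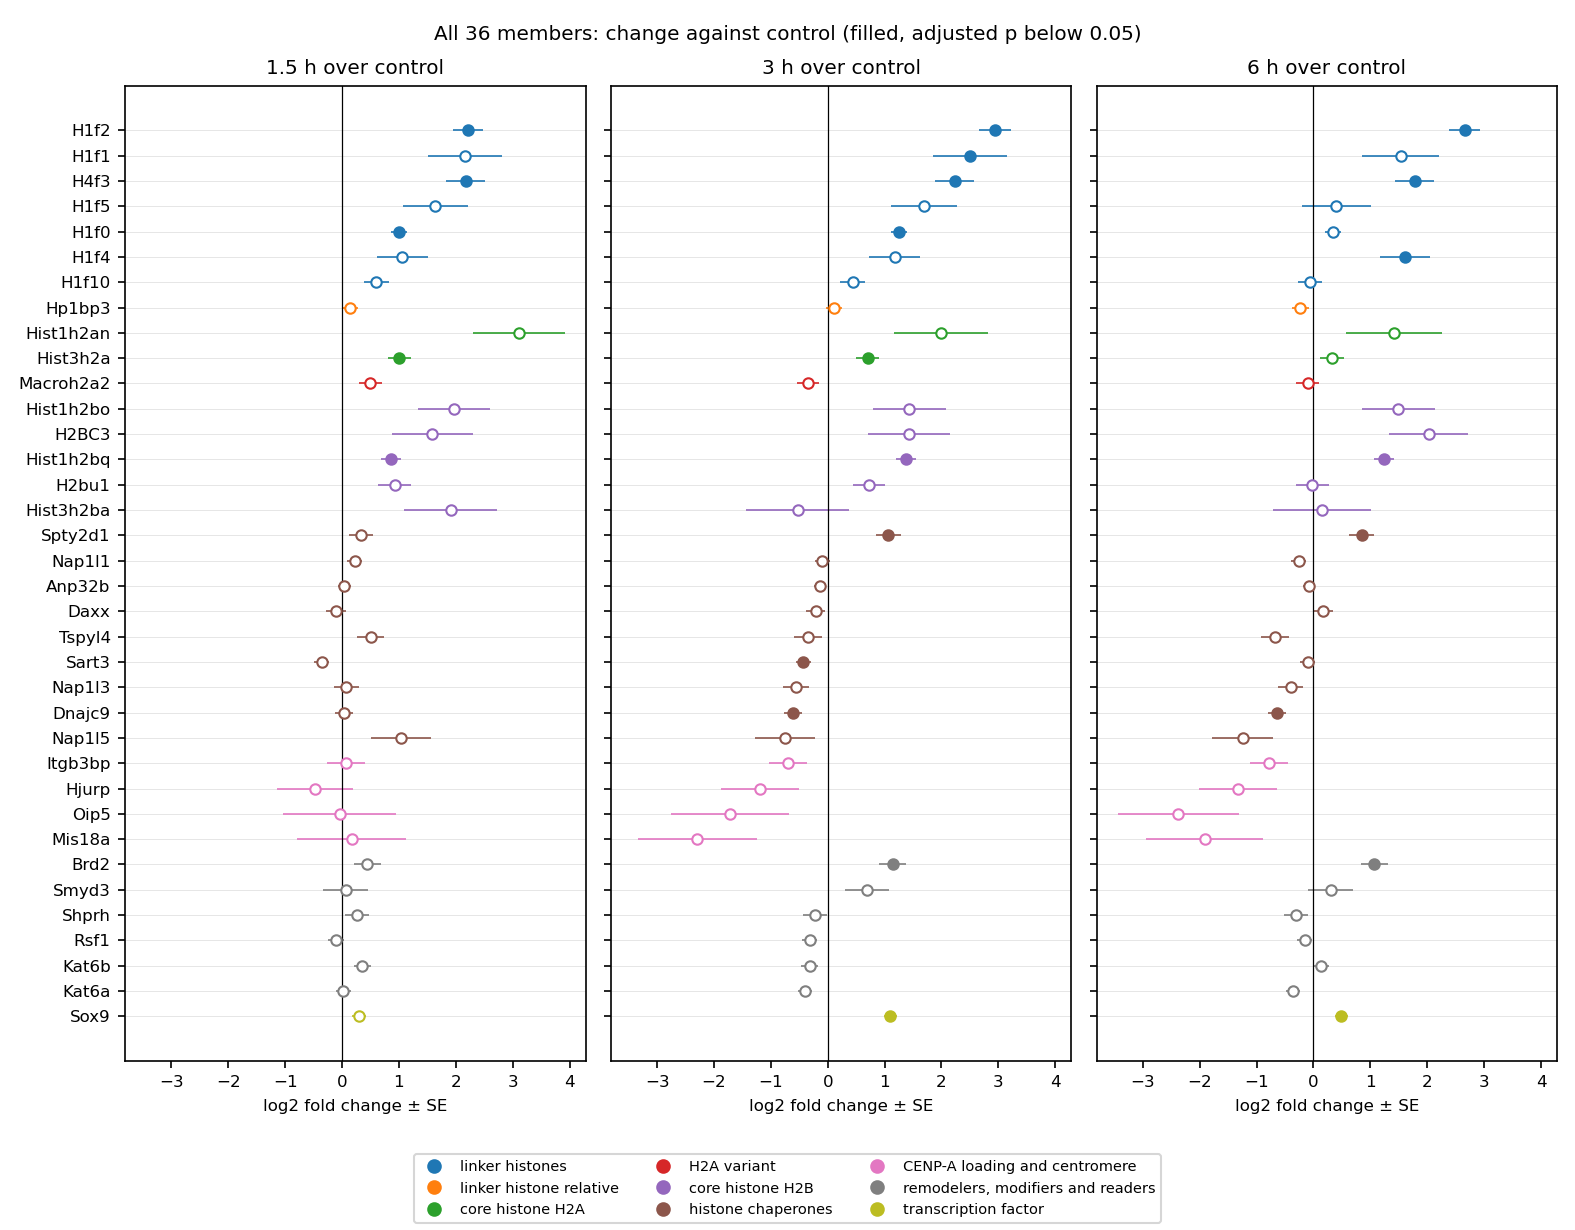
Log2 fold change against control (x axis, ± SE from edgeR) of all 36 members at 1.5, 3 and 6 h, coloured by role; filled points are called at an adjusted p below 0.05. Linker and core histones lie mostly to the right of 0 and the 4 centromere genes to its left at 3 and 6 h without a call. H1f1, H1f4, H1f5, Hist1h2an, Hist1h2bo, H2BC3 and Hist3h2ba passed the filter on low counts only through treated libraries. Their place is thus partly set by that filter.

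The largest rises among called members were those of linker histones, with H1f2 first. H1f2 (ENSRNOG00000067441), which encodes H1.2, a clustered H1 subtype, had 139.5, 145 and 189.8 CPM in control libraries, 782, 746 and 672 at 1.5 h, 1369, 1430.4 and 853 at 3 h and 659, 1151 and 1193 at 6 h. All 9 treated libraries lay far above the highest control, and the libraries nearer to control at 3 and 6 h were the lowest of their groups. The log2 change was 2.21 ± 0.27 at 1.5 h, 2.95 ± 0.28 at 3 h and 2.66 ± 0.27 at 6 h (4.64-fold, 7.70-fold and 6.33-fold, adjusted p = 0.0012, 0.000103 and 0.000155 with edgeR's quasi-likelihood test). The libraries nearer to control, in which microglia markers were also nearest to control levels, had 672, 853 and 659 CPM at 1.5, 3 and 6 h, against 746 to 1430.4 CPM in the other 6 treated libraries, and the part of those markers was not tested.

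H1f0 (ENSRNOG00000063732), which encodes the replication-independent H1.0, had 110.2, 122 and 154 CPM in control libraries, 246, 265 and 261 at 1.5 h, 289, 309.7 and 325 at 3 h and 146, 165 and 179 at 6 h. Its libraries were above every control at 1.5 and 3 h and overlapped with control at 6 h. It rose by 1.00 ± 0.14 at 1.5 h and 1.26 ± 0.14 at 3 h (adjusted p = 0.00281 and 0.000235, edgeR), and at 6 h the change was 0.34 ± 0.14 with an adjusted p of 0.0777. Between 6 h and 3 h it fell by 0.92 ± 0.14 on the log2 scale (adjusted p = 0.0094, edgeR), the 3 libraries at 6 h all lying below the 3 at 3 h. For H1f2 the change between 6 h and 3 h was -0.28 ± 0.26 (adjusted p = 0.638, edgeR), and its 6 h libraries did not overlap with control.

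H4f3 (ENSRNOG00000048264), described in the table as the linker histone H1.3 despite its symbol, had 2.23, 1.71 and 2.2 CPM in control libraries, 10.6, 9.17 and 8.05 at 1.5 h, 9.83, 12.9 and 6.23 at 3 h and 4.37, 8.31 and 8.46 at 6 h. Its treated libraries did not overlap with control at any time. It rose by 2.18 ± 0.35, 2.23 ± 0.35 and 1.78 ± 0.35 at 1.5, 3 and 6 h (adjusted p = 0.00669, 0.00171 and 0.00368, edgeR). Its counts were fractional in 11 of 12 libraries, so its level is uncertain wherever the counting split reads between near-identical copies. Tested as log2(FPKM + 1), where the pseudocount weighs on low levels, its changes were 0.90, 0.78 and 0.59, all still called. H1f2, H1f0 and H1f10 had whole counts in every library.

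The other linker histones were near the detection limit or moved little. H1f1 (H1.1), with counts of 1 to 4 in the control libraries, was tested only through its treated libraries, as given above. It differed by 2.50 ± 0.64 at 3 h (adjusted p = 0.0223, edgeR, and 0.0237 with no filter on low counts) and lost the call without control replicate 1, control replicate 2 or 3 h replicate 2. H1f4 (H1.4) had 2.31, 2.77 and 3.54 CPM at 6 h, against 1.20, 0.643 and 0.968 in control, and rose by 1.61 ± 0.44 (adjusted p = 0.0205, edgeR), a call lost without control replicate 2 or 3 or 6 h replicate 2 or 3. On the log2(FPKM + 1) scale these differences were 0.76 for H1f1 and 0.81 for H1f4, both called. H1f5 (H1.5) had a difference of 1.69 ± 0.57 at 3 h without passing the test (adjusted p = 0.0573, edgeR). H1f10 (H1.10), a replication-independent subtype, had changes of 0.60 ± 0.21, 0.44 ± 0.21 and -0.05 ± 0.21, none called. Hp1bp3, a heterochromatin protein with linker histone domains, ranged over 168 to 285 CPM and was called in no comparison.

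**Figure D2:**
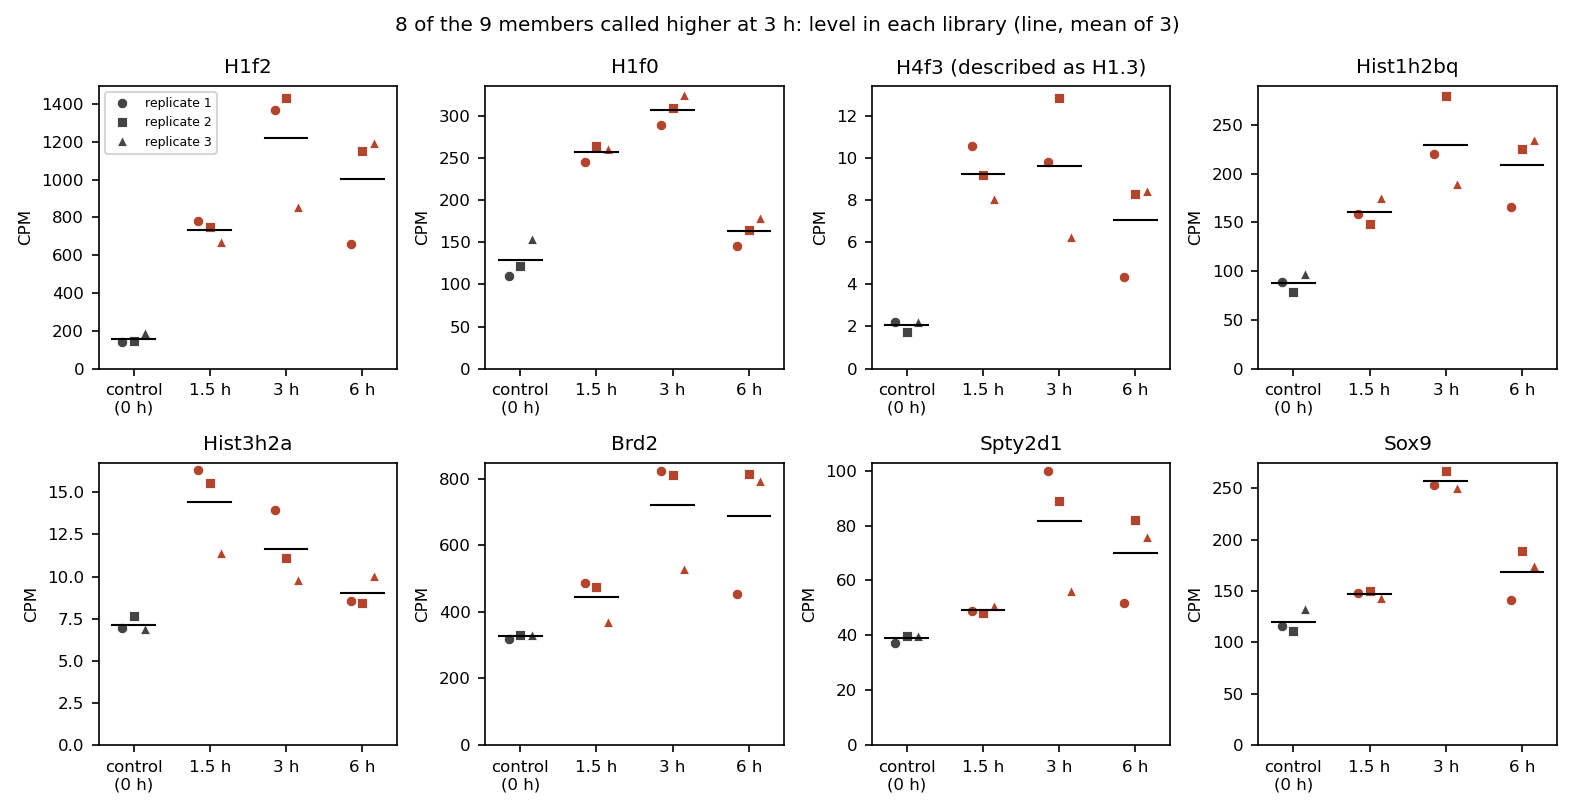
Level in CPM (y axis, from 0) in each library of 8 of the 9 members called higher at 3 h (H1f1, of very low counts, is not drawn), by group; symbols mark replicates and lines the mean of 3. H1f2 is at 659 CPM or more in all 9 treated libraries and at 189.8 CPM or less in the 3 controls, and H1f0 falls back at 6 h.

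Per gene length, the composition of linker histone RNA differed after treatment. The summed FPKM of the 7 linker histones was 77.5, 83.2 and 97.5 in controls, 239.7, 238 and 211 at 1.5 h, 278, 295 and 263 at 3 h, and 175, 229 and 247 at 6 h, so every treated library exceeded every control. H1f2 made up 31.6% to 35.0% of that sum in controls, 54.2% to 56.3% at 1.5 h, 54.3% to 68.5% at 3 h and 64.9% to 75.0% at 6 h. H1f0 made up 43.0% to 47.6% in controls and 18.0% to 24.0% at 6 h. By mean FPKM H1f2 ranked 7 of 36 members in control, at 28.6 ± 4.87 (SD, n = 3), close to Dnajc9 at 35.4 ± 1.90 and Sox9 at 22.3 ± 2.02, and 2 at 3 h, at 178 ± 31.0, overlapping with Nap1l1 at 203 ± 20.2. FPKM rests on the length of the gene model, and the count per FPKM of H1f2 was 4.99 times that of H1f4, so these shares and ranks depend on gene models of unequal length.

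**Figure D3:**
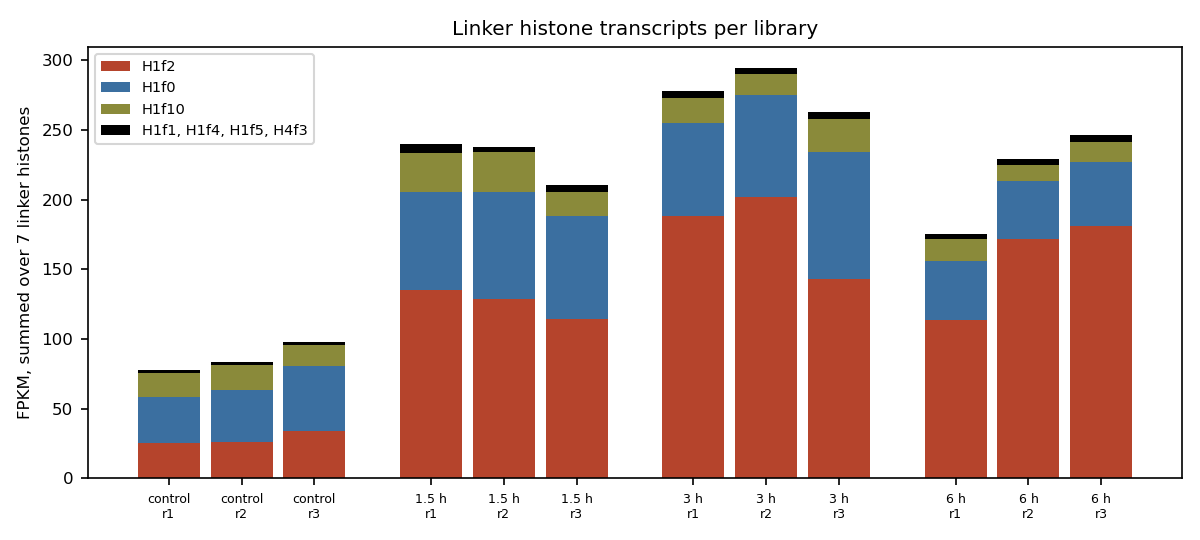
Summed FPKM of 7 linker histones in each of the 12 libraries (bars from 0), split into H1f2, H1f0, H1f10 and the other 4. The control bars reach 77.5 to 97.5 and the treated bars 175 to 295, and the H1f2 segment is the largest one in every treated library.

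Among core histones, 1 H2B and 1 H2A gene rose. Hist1h2bq (ENSRNOG00000069578), a clustered H2B gene, had 88.7, 78.4 and 96.9 CPM in control libraries, 158, 148 and 175 at 1.5 h, 219.6, 279.7 and 189 at 3 h and 165, 226 and 235 at 6 h. Treated libraries lay above every control at each time, and it rose by 0.87 ± 0.18, 1.38 ± 0.18 and 1.25 ± 0.18 (adjusted p = 0.0251, 0.000575 and 0.000732, edgeR). The 1.5 h call was lost on leaving out any 1 of 5 libraries, every one but 1.5 h replicate 3. It was also lost with the replicate number as a block, at 0.86 and an adjusted p of 0.0525 (edgeR).

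Hist3h2a (ENSRNOG00000064520), an H2A gene of a smaller cluster, had 6.93, 7.64 and 6.86 CPM in control libraries, 16.3, 15.5 and 11.4 at 1.5 h, 14.0, 11.1 and 9.80 at 3 h and 8.56, 8.42 and 10.1 at 6 h. It was highest at 1.5 h, where no library overlapped with control. It rose by 1.01 ± 0.21 at 1.5 h and 0.70 ± 0.21 at 3 h (adjusted p = 0.0266 and 0.0367, edgeR), with 0.33 ± 0.21 at 6 h (adjusted p = 0.237, edgeR). The 3 h call was lost in 12 of 19 alternatives, with library size scaling giving 0.38, and the 1.5 h call was lost without any 1 library other than 1.5 h replicate 3 and with the replicate number as a block (adjusted p = 0.0581, edgeR).

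The other core histone genes were low and none was called. Hist1h2an, Hist1h2bo and H2BC3 passed the filter only through treated libraries, as given above. Hist1h2an, an H2A gene, had 0.599, 0.214 and 0 CPM in control, 2.72, 2.82 and 1.71 at 1.5 h, 1.67, 1.21 and 0.458 at 3 h and 0.599, 0.616 and 1.03 at 6 h. Hist1h2bo, an H2B gene, had 0.086, 0.643 and 0.616 CPM in control, 2.11, 1.88 and 1.41 at 1.5 h, 1.38, 1.54 and 0.824 at 3 h and 1.03, 2.05 and 0.800 at 6 h. H2BC3, described in the table as an H2B gene, had 0.514, 0.214 and 0.264 CPM in control, 0.805, 0.627 and 1.61 at 1.5 h, 0.983, 0.220 and 1.47 at 3 h and 1.37, 1.03 and 1.71 at 6 h. At 3 h Hist1h2an and H2BC3 thus overlapped with control. H2bu1 (H2B.U) and Hist3h2ba, both H2B genes, had changes of 0.93 ± 0.29 and 1.91 ± 0.82 at 1.5 h and -0.02 ± 0.29 and 0.15 ± 0.86 at 6 h. Counts of Hist1h2an, Hist3h2a, H2bu1 and Hist3h2ba were fractional in 8 or more libraries, as were those of Macroh2a2, and are uncertain in the same way. Macroh2a2, the H2A variant macroH2A.2 known from silent chromatin, had 0.50 ± 0.19 at 1.5 h and -0.35 ± 0.20 at 3 h against control, neither called, but fell between 3 h and 1.5 h by 0.85 ± 0.20 (adjusted p = 0.0182, edgeR).

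Of 9 histone chaperones, none was called at 1.5 h, 1 rose and 2 fell at 3 h, and 1 rose and 1 fell at 6 h, shares of 33.3% and 22.2% where 21.4% and 30.5% of all genes were called. Spty2d1, which encodes the SPT2 homolog that binds H3 and H4, had 37.3, 39.8 and 39.6 CPM in control libraries, 48.9, 48.3 and 50.7 at 1.5 h, 99.9, 88.9 and 56.1 at 3 h and 52.0, 82.0 and 76.0 at 6 h. All treated libraries lay above all controls, with the libraries nearer to control lowest at 3 and 6 h. It rose by 1.07 ± 0.21 at 3 h and 0.85 ± 0.21 at 6 h (adjusted p = 0.00687 and 0.0135, edgeR), and the 6 h call was lost without control replicate 1 or 6 h replicate 2 or 3. On the log2(FPKM + 1) scale the rises were 0.65 and 0.55, both called.

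Dnajc9, which encodes a co-chaperone that recruits heat shock proteins to H3 and H4, had 70.4, 73.3 and 66.3 CPM in control libraries, 69.9, 79.7 and 65.9 at 1.5 h, 41.5, 40.6 and 55.9 at 3 h and 53.5, 41.9 and 39.1 at 6 h. The 3 and 6 h libraries all lay below control, those nearer to control highest in their groups. It fell at both times, with log2 changes of -0.61 ± 0.16 and -0.64 ± 0.16 (adjusted p = 0.0242 and 0.0126, edgeR). The 3 h call was lost without any 1 library other than 3 h replicate 3. Sart3, a splicing factor that also binds histones, had 56.1, 56.5 and 53.2 CPM in control. At 1.5 h it had 44.4, 44.9 and 40.0 CPM, all below every control but not called. At 3 h it had 42.5, 41.0 and 39.9 CPM and fell with a log2 change of -0.43 ± 0.13 (adjusted p = 0.0381, edgeR). That call was also lost without any 1 library other than 3 h replicate 3. With library size scaling the change at 3 h was -0.74, still called. At 6 h Sart3 had 41.5, 56.5 and 56.5 CPM and overlapped with control (-0.10 ± 0.13). There the library nearer to control over all genes, replicate 1, was the lowest.

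The NAP1 family followed no common course. Nap1l1, the ubiquitous carrier of H2A and H2B and the highest member by FPKM in control, had changes of 0.22 ± 0.13, -0.10 ± 0.13 and -0.26 ± 0.13, none called. Nap1l5, a relative expressed in brain, had 17.9, 17.4 and 14.5 CPM in control libraries, 37.9, 43.4 and 20.6 at 1.5 h, 7.77, 5.50 and 16.2 at 3 h and 13.2, 4.62 and 3.09 at 6 h. Its pairs of alike libraries lay above control at 1.5 h and below it at 3 and 6 h, while 3 h replicate 3 lay among the controls. It was called in no comparison with control, and fell by 1.79 ± 0.54 between 3 h and 1.5 h (adjusted p = 0.0414, edgeR). Tspyl4, which carries a NAP domain, fell by 0.85 ± 0.24 between the same times (adjusted p = 0.0359, edgeR). Nap1l3, Anp32b (an acidic H2A and H2B chaperone) and Daxx (which deposits the variant H3.3 with Atrx) were called in no comparison, with changes at 3 h of -0.56 ± 0.22, -0.14 ± 0.11 and -0.21 ± 0.17.

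The 4 genes of centromeric chromatin differed mainly between libraries of a group. Oip5, a subunit of the Mis18 complex that marks centromeres for CENP-A loading, had 19.6, 22.3 and 14.3 CPM in control libraries, 16.5, 21.8 and 16.2 at 1.5 h, 1.97, 0.770 and 14.2 at 3 h and 8.90, 0.308 and 1.37 at 6 h. Mis18a, another subunit, had 4.71, 7.14 and 2.64 CPM in control libraries, 5.84, 6.27 and 4.23 at 1.5 h, 0.295, 0.110 and 2.47 at 3 h and 3.17, 0.103 and 0.457 at 6 h. At 3 and 6 h the pair of alike libraries was far below control in both genes, whereas the library standing apart was within or just outside the control range, or for Oip5 at 6 h below it. The split is that of the 25 mitosis genes given above, whose part in it was not tested.

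Hjurp, the chaperone that carries CENP-A, had 42.6, 53.3 and 34.1 CPM in control libraries, 33.3, 34.8 and 25.2 at 1.5 h, 8.55, 8.03 and 40.3 at 3 h and 34.6, 7.08 and 10.1 at 6 h. Itgb3bp, which encodes CENP-R of the inner kinetochore, had 12.8, 12.6 and 12.5 CPM in control libraries, 11.6, 13.5 and 14.6 at 1.5 h, 6.19, 5.83 and 11.2 at 3 h and 10.6, 4.31 and 6.97 at 6 h. Hjurp in the library standing apart lay within the control range at both times, and Itgb3bp lay below the controls in every library at 3 and 6 h. None of the 4 was called against control at any time with all libraries, the changes at 3 h being -1.72 ± 1.04 for Oip5, -2.29 ± 1.05 for Mis18a, -1.19 ± 0.68 for Hjurp and -0.70 ± 0.33 for Itgb3bp. With the 3 libraries standing apart left out, all 4 fell at 3 and 6 h, with log2 changes of -3.80 ± 0.39 for Oip5 and -2.45 ± 0.20 for Hjurp at 3 h (adjusted p = 3.25e-06 and 9.06e-08, edgeR), where 39.6% of all genes were lower at 3 h and 41.8% at 6 h. Those libraries were named for their likeness to control, so leaving them out enlarges differences by construction.

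**Figure D4:**
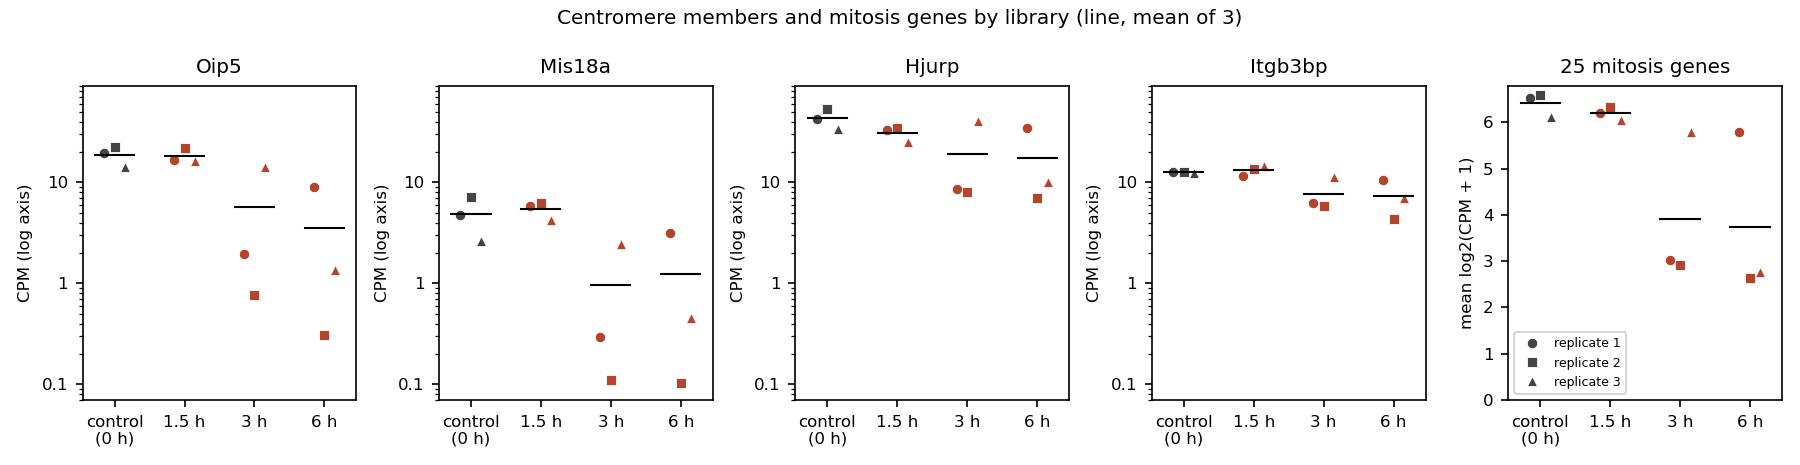
CPM of Oip5, Mis18a, Hjurp and Itgb3bp (log axis) and mean log2(CPM + 1) of 25 mitosis genes (linear axis) in each library, by group; symbols mark replicates and lines the mean of 3. At 3 h replicate 3, and at 6 h replicate 1, lie near the controls, and the other libraries of those groups lie below them.

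Among remodelers, modifiers and readers, 1 of 6 was called against control. The called shares were 0%, 16.7% and 16.7% at 1.5, 3 and 6 h, where 3.32%, 21.4% and 30.5% of all genes were called. With 6 genes 1 call makes 16.7%, so no lack of calls is read from these shares. Brd2, which encodes a bromodomain protein that reads acetylated histones, had 319, 331 and 331 CPM in control libraries, 488, 475 and 370.3 at 1.5 h, 824, 811 and 528 at 3 h and 455, 813 and 794 at 6 h. It lay above every control in all 9 treated libraries, and the libraries nearer to control were lowest in each group. It rose by 1.14 ± 0.24 at 3 h and 1.07 ± 0.24 at 6 h (adjusted p = 0.00921 and 0.00786, edgeR), against 0.44 ± 0.24 at 1.5 h (adjusted p = 0.304, edgeR).

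The histone acetyltransferase genes Kat6a and Kat6b were called between treated times only, falling by 0.42 ± 0.13 and 0.67 ± 0.15 between 3 h and 1.5 h (adjusted p = 0.0452 and 0.0156, edgeR). Kat6b had 59.1, 51.6 and 50.4 CPM at 1.5 h and 33.9, 34.9 and 32.3 at 3 h, against 41.8, 43.8 and 40.5 in control, so its 1.5 h libraries lay above and its 3 h libraries below every control. Neither difference from control was called. Rsf1, a subunit of a nucleosome spacing complex, Shprh, a helicase and ubiquitin ligase, and Smyd3, a lysine methyltransferase, were called in no comparison. Rsf1 and Shprh had changes of -0.31 ± 0.13 and -0.22 ± 0.21 at 3 h. Smyd3 had 17.5, 14.8 and 6.87 CPM at 3 h, against 7.88, 8.85 and 7.57 in control, with replicate 3 below the controls and the other pair above them.

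Sox9, a transcription factor that specifies and maintains astrocytes and carries the nucleosome assembly term, had 116, 111 and 132 CPM in control libraries, 148, 149.7 and 143 at 1.5 h, 253, 267 and 251 at 3 h and 142, 189 and 174 at 6 h. All treated libraries lay above all controls and the 3 h group was highest, with no overlap with either neighbour in time. It rose by 1.10 ± 0.12 at 3 h and 0.49 ± 0.12 at 6 h against control (adjusted p = 0.000241 and 0.0123, edgeR). The 6 h call was lost in 8 of 19 alternatives, where library size scaling gave 0.26.

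Between treated times, 2 members rose and 6 fell at 3 h against 1.5 h, or 22.2% of members, where 20.3% of all genes were called (12.1% higher, 8.23% lower). Sox9 (0.81 ± 0.12) and Spty2d1 (0.73 ± 0.21) rose, and Dnajc9 (-0.64 ± 0.16), Kat6a, Kat6b, Macroh2a2, Nap1l5 and Tspyl4 fell. With library size scaling Kat6a had -0.65 and stayed called, and Spty2d1 had 0.46 and lost the call. With the replicate number as a block 5 were called, as Nap1l5, Kat6a and Spty2d1 lost the call (adjusted p = 0.0709, 0.0731 and 0.0624, edgeR). Without the 3 libraries standing apart 68.6% of 35 members were called, against 69.9% of all genes. The count with all libraries was 8, and it was 1 without 1.5 h replicate 1 or 2, 2 without 3 h replicate 2, 4 without 3 h replicate 1, 13 without 1.5 h replicate 3 and 16 without 3 h replicate 3. At 6 h against 3 h 0 rose and 2 fell, H1f0 and Sox9 (-0.61 ± 0.12), or 5.56% against 4.05% of all genes (2.33% higher, 1.72% lower), and DESeq2 also called 2. An unadjusted p below 0.05 (edgeR) was seen for 9 members, a count that was not made over all genes. The count of 2 called members became 1 without 3 h replicate 1, 3 h replicate 2 or 6 h replicate 3, and 4 without 6 h replicate 1.

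Other genes of the pathway were taken from lists that overlap with the members. Of 29 tested histone chaperones, 11 of them members, 0 were called at 1.5 h, 2 rose and 7 fell at 3 h, and 3 rose and 8 fell at 6 h. These are 6.9% higher and 24.1% lower at 3 h, and 10.3% and 27.6% at 6 h, where 13.5% and 7.94% of all genes, and 18.7% and 11.8%, were higher and lower. Tonsl, which binds newly made H4 at replication forks, and Chaf1a, the large subunit of the replication-coupled assembly factor CAF-1, fell at 3 h, with log2 changes of -1.94 ± 0.53 and -1.42 ± 0.22 (adjusted p = 0.0281 and 0.00156, edgeR). Hirip3, a histone-binding protein known to interact with HIRA, also fell, with -1.08 ± 0.20 at 3 h and -1.03 ± 0.20 at 6 h. At 6 h Atrx, which acts in H3.3 deposition outside replication, fell, with -1.42 ± 0.24, and Tspyl2, of the NAP family, rose by 1.01 ± 0.17 (adjusted p = 0.00162 and 0.00187, edgeR).

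Of 19 tested chromatin remodelers 1 rose and 7 fell at 3 h, and 2 rose and 7 fell at 6 h, so that 36.8% fell at either time where 7.94% of all genes at 3 h and 11.8% at 6 h were lower, and 13.5% and 18.7% higher. Hells, a remodeler needed for DNA methylation, fell with a log2 change of -1.77 ± 0.47 at 3 h, and Chd7 rose by 0.99 ± 0.23 (adjusted p = 0.0261 and 0.0153, edgeR). Of 10 genes that process histone messages, 0 rose and 1 fell at 3 h (Eri1, -0.57 ± 0.18), and 1 rose and 3 fell at 6 h, where 18.7% of all genes were higher and 11.8% lower. At 6 h Lsm11, a protein of the U7 particle that cuts histone messages, rose by 0.92 ± 0.27 (adjusted p = 0.0248, edgeR). Casp8ap2, a partner of that particle, fell with -0.93 ± 0.30, Tut7, which adds uridines to RNA ends, with -0.51 ± 0.15, and Slbp, which binds the stem-loop of histone messages, with -0.45 ± 0.11 (adjusted p = 0.0359, 0.028 and 0.0138, edgeR).

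S phase genes, with which clustered histone transcription is coupled in cycling cells, were called in 1 direction. Of 30 tested S phase genes 0 were called at 1.5 h, 11 fell and 0 rose at 3 h, and 15 fell and 0 rose at 6 h, against backgrounds of 7.94% and 11.8% of all genes lower. Their mean level as log2(CPM + 1) was 5.56 to 5.96 in controls, 5.59 to 5.75 at 1.5 h, 4.10, 3.95 and 5.39 at 3 h, and 5.18, 3.96 and 3.91 at 6 h, the same libraries standing apart. Mcm6, of the replicative helicase, fell, with a log2 change of -1.29 ± 0.40 at 3 h. Of 15 cell cycle inhibitors 4 rose and 0 fell at 1.5 h, 4 rose and 1 fell at 3 h, and 5 rose and 2 fell at 6 h, or 26.7%, 26.7% and 33.3% higher where 1.95%, 13.5% and 18.7% of all genes were. Cdkn1a (p21) was among those higher at 3 h, with 1.73 ± 0.30 (adjusted p = 0.00336, edgeR). At 1.5 h it was not called, with 0.62 ± 0.29 (adjusted p = 0.253, edgeR). Rbl1 fell at 3 h, with -1.43 ± 0.41 (adjusted p = 0.0323, edgeR). Cdkn2c and Rbl2 fell at 6 h, with -1.40 ± 0.34 and -0.74 ± 0.13 (adjusted p = 0.0116 and 0.00263, edgeR).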

How the data were processed

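Levels of RNA from 12 libraries, 3 per group, were analysed, with groups and replicate numbers read from the sample titles. Per the file headers, the table the authors deposited lists for each gene an estimated count and an FPKM in every library. The submitters' processing notes name StringTie 2.2.1, and for the aligner, build and annotation the sources used here give no name. Since 9.49% of count values were not whole (tolerance 1e-06), counts were rounded before testing, which departs from the whole counts foreseen in the chosen tests. The table covers part of the rat genes, to which adjusted p-values and background shares refer.

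Tests used edgeR 4.0.16 under R 4.3.3. The filterByExpr step removed 230 of 9721 genes, and the remaining 9491 were scaled by TMM and entered 1 robust quasi-likelihood fit of 12 libraries with the group as sole term. Genes were called at a Benjamini-Hochberg adjusted p below 0.05. CPM rests on TMM-scaled library sizes, fold changes on a prior count of 0.125, and each SE on the fold change and its F value. Depth was 9368967 to 12498047 counts per library. All members are named, and of other lists up to 4 called genes per comparison, in order of their largest changes. Deviations from group means correlated above 0.1 in all 3 same-numbered pairs between 1.5 h and control and between 3 h and 1.5 h, though not elsewhere and with no label behind the pairing, so blocked values stand beside calls they end in those comparisons. Members, role classes, lists and the libraries named as standing apart were chosen with earlier results of these data known. The code was tested on simulated data. Alternatives were other scaling, filters and fits, DESeq2 1.42.0, limma 3.58.1 on log2 FPKM, the replicate number as a block and leaving out libraries. Scaling by depth from count and FPKM was added after seeing the data.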

Additional observations from a re-analysis of the deposited data

Results flagged for a closer look

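Differences between treated times that passed edgeR's quasi-likelihood test were seen for 9 members. At 3 h against 1.5 h the log2 difference was -1.79 for Nap1l5, -0.85 for Macroh2a2, -0.85 for Tspyl4, -0.67 for Kat6b, -0.64 for Dnajc9, -0.42 for Kat6a, 0.73 for Spty2d1 and 0.81 for Sox9. At 6 h against 3 h it was -0.92 for H1f0 and -0.61 for Sox9.

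For a pair of members every library of 1 time lay above control and every library of another time below it. How many of all genes did so was not counted. At single times 12.9% to 28.2% of all genes lay wholly above control and 15.1% to 27.5% wholly below it. These shares do not give how often a gene does both, so the pair is not read as unusual. Kat6b had a log2 change against control of 0.35 at 1.5 h and -0.32 at 3 h, neither called, and the difference between these times passed the test as given above. Nap1l5 had 1.04 at 1.5 h and -1.24 at 6 h, neither called, and the difference between 6 h and 1.5 h was not tested. At 1.5 h the replicates 1 and 2 with the highest Nap1l5 also had the lowest microglia markers, whose part was not tested.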

How the results depend on the processing

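Across the called results of single members, 34 in all, the direction was kept under every alternative, and 16 kept the call under all of them, among them H1f2 and H4f3 at 3 times, H1f0 at 1.5 and 3 h, and Brd2 at 3 and 6 h. Counts of called members moved by over 1.5 times as follows, and the cause was not tested except where named. Except where given, the share of all genes called under a setting was not computed, so a moved count may be shared by all genes. At 1.5 h, with 5 called, DESeq2 called 8. At 3 h, with 11, library size scaling gave 17, and limma on log2 FPKM gave 20 (pseudocount 1) and 19 (0.1). At 6 h, with 8, these gave 13, 17 and 15. At 3 h against 1.5 h, with 8, DESeq2 gave 14, limma 14 and 13, and a fit of only these 2 groups 1. At 6 h against 3 h, with 2, a fit of only these groups gave 0. Leaving out 1 library at a time gave 3 to 11, 7 to 18, 5 to 14, 1 to 16 and 1 to 4 members in the 5 comparisons in this order. Leaving out together the 3 treated libraries closest to control gave 23, 29, 23, 24 and 9, and a larger count against control follows from that choice. These are 65.7%, 82.9%, 65.7%, 68.6% and 25.7% of 35 tested members, where 59.2%, 70.9%, 75.1%, 69.9% and 34.1% of all genes were called. With the replicate number as a block the counts were 3, 9, 11, 5 and 1, and 8 of 18 correlations of same-numbered libraries exceeded 0.1, all 3 for 1.5 h with control and for 3 h with 1.5 h and fewer for other groups, where the numbers are not taken to pair libraries. Depth limits the members with under 10 counts in controls, whose changes rest on few reads.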
